A study of Mus musculus with 5 samples.

Results

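Ppara, Creb3l3, Cpt1a, Acadm, Ehhadh, Angptl4 and Pdk4 are 7 mouse genes of fatty acid oxidation, ketone body formation and the response to the nuclear receptor PPARα. They were chosen by symbol from a gene table of 27998 genes, and each symbol matched 1 row. The rule of choice used no measured value, but earlier results of these data were known when it was made. Their levels are described here in single epithelial cells from the ileum, the distal part of the small intestine, taken from C57BL/6 mice that were 8 to 12 weeks old. One group of mice had lost part of the small intestine by surgery (small bowel resection), and the control group had undergone sham surgery. The labels name 3 sham libraries and 2 resection libraries, give no transgene or drug, and give neither the time after surgery nor the number of mice behind a library. A p-value here therefore measures the spread between libraries, which may be technical.

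PPARα is a receptor that senses fatty acids and, bound to DNA with its partner RXR, switches on genes for burning fat. CREB3L3 (also called CREBH) is a transcription factor held in the endoplasmic reticulum membrane, found mainly in liver and intestine, that acts with PPARα on genes of fasting. CPT1A links long-chain fatty acids to carnitine and so controls their entry into mitochondria, and ACADM removes the first hydrogens from medium-chain fatty acids there. EHHADH carries out 2 steps of fatty acid oxidation in peroxisomes. ANGPTL4 is a secreted inhibitor of lipoprotein lipase, and PDK4 switches off pyruvate dehydrogenase, which spares glucose. In the small intestine these pathways meet dietary fat, which enterocytes either burn or pack into lipoproteins.

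None of the 7 loci overlaps another annotated gene on the same strand in GENCODE M21 on GRCm38, the build named in the submitters' processing notes. Ppara (ENSMUSG00000022383) spans chr15:85734983-85802819 on the plus strand, and Cpt1a (ENSMUSG00000024900) spans chr19:3322334-3385733 on the plus strand. The other members lie on minus strands. Creb3l3 (ENSMUSG00000035041) spans chr10:81084324-81098874, Acadm (ENSMUSG00000062908) chr3:153922357-153944632 and Ehhadh (ENSMUSG00000022853) chr16:21761287-21787807. Angptl4 (ENSMUSG00000002289) spans chr17:33773750-33781830 and Pdk4 (ENSMUSG00000019577) chr6:5483351-5496309.

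The promoters of Creb3l3 and Cpt1a are shown because these members differed most between enterocyte classes, in opposite directions, and that of Acadm because it holds the same hexamer. The sequences are from RefSeq on GRCm38.p6 and run 5′ to 3′ on the gene's strand, each covering the 250 bases before a transcription start. Capitals mark matches to the hexamer AGGTCA, on either strand, or to a tandem pair of it, read as AGGTCA, any base, AGGTCA with at most 2 mismatches, the kind of repeat that PPARα and RXR bind. A tandem match can contain a hexamer match. Creb3l3 has a start at the 5′ end of the gene (chr10:81098873-81099122 lies before it) and another inside the gene (chr10:81092592-81092841), and the 3′ counts do not tell which was used. The third window is chr19:3323051-3323300 and the last is chr3:153944644-153944893.
Creb3l3, 5′ start: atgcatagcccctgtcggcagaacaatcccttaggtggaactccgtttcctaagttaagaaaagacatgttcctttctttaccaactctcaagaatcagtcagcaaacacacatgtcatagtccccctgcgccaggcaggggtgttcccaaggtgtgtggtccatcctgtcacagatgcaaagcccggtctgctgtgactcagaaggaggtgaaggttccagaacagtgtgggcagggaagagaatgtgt
Creb3l3, internal start: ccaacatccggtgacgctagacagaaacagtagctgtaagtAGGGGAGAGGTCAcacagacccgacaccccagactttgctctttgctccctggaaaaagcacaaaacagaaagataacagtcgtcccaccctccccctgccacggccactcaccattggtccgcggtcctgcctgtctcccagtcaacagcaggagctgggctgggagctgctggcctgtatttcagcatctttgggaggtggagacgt
Cpt1a: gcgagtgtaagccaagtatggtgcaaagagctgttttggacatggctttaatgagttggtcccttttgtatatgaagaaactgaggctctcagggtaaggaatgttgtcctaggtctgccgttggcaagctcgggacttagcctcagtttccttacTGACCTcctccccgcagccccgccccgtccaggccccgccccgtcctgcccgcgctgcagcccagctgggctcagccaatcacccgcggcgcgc
Acadm: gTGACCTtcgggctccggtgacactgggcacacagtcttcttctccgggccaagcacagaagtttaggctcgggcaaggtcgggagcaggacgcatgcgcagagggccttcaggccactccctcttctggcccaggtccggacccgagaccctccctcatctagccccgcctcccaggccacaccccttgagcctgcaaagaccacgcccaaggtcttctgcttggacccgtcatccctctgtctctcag
The window of the internal Creb3l3 start holds AGGGGAGAGGTCA, a tandem match that begins 209 bases before the start and contains a hexamer match at 202 bases. The Cpt1a window holds the hexamer on the opposite strand 94 bases before the start, and the Acadm window holds it on the opposite strand 249 bases before the start. Windows of Ehhadh, Pdk4, Ppara and the 5′ Creb3l3 start held neither motif, and the cyclic AMP response element TGACGTCA, on either strand, was in no member's window. The search ran over the 250 bases before and 50 bases after each of 7 starts of 6 members (Angptl4 had no entry). Over all 32851 windows of that length, 16.3% held the hexamer, 3.86% the tandem match and 1.79% the cyclic AMP response element, so these matches describe the sequence and nothing more.

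The libraries held 1402 to 7233 cells and 11749028 to 41281731 counted transcripts (UMIs), with medians of 4541 to 6239.5 UMIs per cell, and 18235 of 19404 cells were kept. Pairs of libraries shared 6 to 47 cell barcodes. Clusters were named from marker genes, which gave 11297 enterocyte-like, 3213 immature enterocyte-like, 1086 cycling-like, 546 goblet-like, 1015 Paneth-like, 588 stem-like and 462 T cell-like cells. Libraries stood apart within these classes. Of the 1105 cells in one immature cluster, 382 came from sham 1 and 710 from resection 1, and the other immature cluster came almost wholly from the other 3 libraries. Enterocyte-like cells of different libraries also lay mostly in different clusters: 439 of the 543 in sham 1 in cluster 15, 1213 of 2337 in sham 2 in cluster 3, and 829 of 1604 in sham 3 in cluster 11. In resection 1, clusters 4 and 9 held 1285 and 903 of 2356, and in resection 2, clusters 1, 8 and 10 held 1550, 929 and 802 of 4457. Surgery contrasts are therefore, with this split known from earlier results of these data, also given for the members in enterocyte-like cells within sham 1 and resection 1 and within the other 3 libraries. The lowest UMI total of a deposited cell ran from 2354 in sham 2 to 3963 in sham 1, so shares of cells with a transcript were also taken after thinning each cell to 2000 UMIs. Levels below are counts per 1000000 (CPM) of the UMIs summed over a class in a library, scaled by TMM unless stated.

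Creb3l3 was the member whose enterocyte-like level separated the surgery groups, at about 2 times the sham level after resection, although its difference did not pass the adjusted test. The level was 177, 195 and 149 CPM in sham 1, 2 and 3 and 407 and 284 CPM in resection 1 and 2. The lower of the resection values exceeded the highest sham value, an arrangement found for 10.5% of all 10371 genes tested. The group means were 174 ± 23.3 CPM (SD, n = 3) after sham surgery and 345 ± 87.0 CPM (SD, n = 2) after resection. The log2 fold change of resection over sham was 0.99 ± 0.30 (SE), with an unadjusted p of 0.0121 and an adjusted p of 0.782 in edgeR's quasi-likelihood test. The log2 difference was 1.19 between sham 1 and resection 1 and 0.73 within the other 3 libraries. By DESeq2 the adjusted p was 0.177, within a range of 0.177 to 1.0 over 13 alternatives. Within shared clusters, unscaled Creb3l3 of resection 2 did not exceed all sham values. It was 512 CPM in cluster 1, against 603 in resection 1 and 724 in sham 2. In clusters 6 and 8 it was 70.3 and 242, under both sham 2 (79.0 and 324) and sham 3 (117 and 424). In clusters 10 and 11 it was 207 and 78.1, against 224 and 148 in sham 3. In clusters 2 and 3 it lay between sham values. Cluster 15 had 302 in resection 1, against 184 and 296 in sham 1 and 2. Some of these values rest on few cells. In cluster 1 sham 2 had 101 and resection 1 had 58 cells, and in cluster 8 sham 2 had 53 and sham 3 had 25. Sham 3 had 60 cells in cluster 10, and resection 2 had 50 in cluster 11. In cluster 15 resection 1 had 48 cells and sham 2 had 31. Clusters 2 and 6, named enterocyte-like by a tie rule given below, had the lowest pooled Creb3l3 of the enterocyte-like clusters (60.8 and 78.9 CPM, unscaled). They held 2 and 5 of 543 cells in sham 1, 468 and 448 of 2337 in sham 2 and 519 and 118 of 1604 in sham 3. In resection 1 they held 19 and 6 of 2356, and in resection 2 they held 516 and 518 of 4457. The part of clusters and of their uneven shares was not tested.

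**Figure D1:**
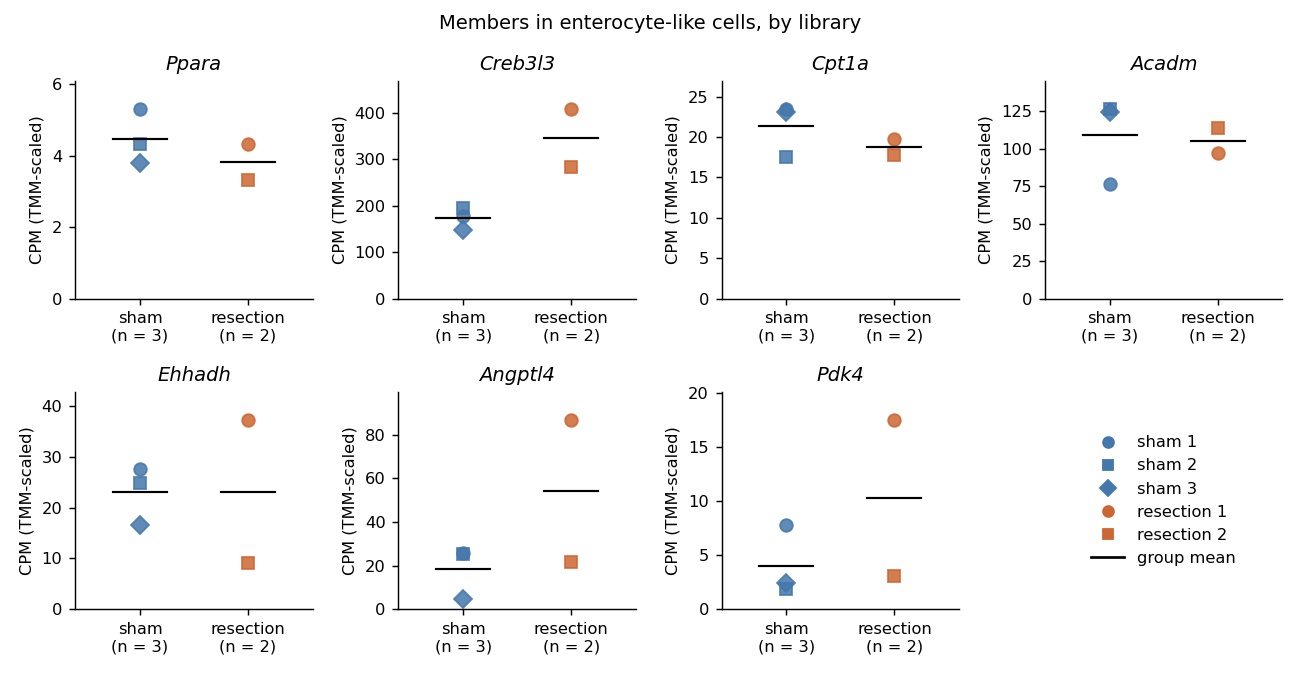
Level of each of the 7 genes in enterocyte-like cells, 1 point per library (3 sham, 2 resection), in CPM on a separate vertical axis for each gene. The Creb3l3 points of resection (407 and 284 CPM) lie above all 3 sham points, and the points of the other 6 genes overlap between groups.

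More enterocyte-like cells also carried a Creb3l3 transcript after resection. For sham 1, 2 and 3 the share was 56.0%, 44.0% and 49.0%, and for resection 1 and 2 it was 84.8% and 60.5%. With every cell thinned to 2000 UMIs it was 30.4% (exact 95% interval 26.5 to 34.4), 28.4% (26.5 to 30.2) and 23.6% (21.6 to 25.8) in the sham libraries. The thinned share in the resection libraries was 56.7% (54.6 to 58.7) and 39.0% (37.6 to 40.5), above every sham interval. The intervals cover counting error within a library and not the spread between libraries. T cell-like cells, which should lack this gene, gave thinned shares of 25%, 14.9% and 16.7% after sham surgery and 36.4% and 27.4% after resection. These shares lay below those of enterocyte-like cells of the same library, at median depths of 4097 to 6805 UMIs against 4120 to 5875. Their Creb3l3 level, unscaled, was 117, 124 and 112 CPM in the sham libraries and 231 and 213 CPM in the resection libraries. The T cell-like values thus had the same arrangement, in cells that also carried enterocyte markers. The summed level of the 8 enterocyte markers in T cell-like cells was 37864 to 46684 CPM after sham surgery and 37694 and 77675 CPM after resection, against 54604 to 76025 and 65096 and 103800 CPM in enterocyte-like cells. None of the 8 markers was at 0, and the part of enterocyte RNA in the T cell-like values was not tested.

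Ppara itself was low in all 5 libraries and overlapped between groups. Its enterocyte-like level was 5.29, 4.32 and 3.80 CPM in sham 1, 2 and 3 and 4.33 and 3.33 CPM in resection 1 and 2 (log2 fold change −0.20 ± 0.31, and −0.24 within sham 1 and resection 1 and −0.22 within the other 3 libraries). A transcript was found in 3.13%, 1.80% and 2.43% of sham enterocyte-like cells and in 2.55% and 1.53% of resection cells. In T cell-like cells the share was 0 of 32 cells in sham 1 (exact 95% interval up to 10.9%), 0.877% in sham 2 and 2.38% in sham 3. For resection 1 and 2 it was 3.03% and 3.32%. The enterocyte-like share was below the T cell-like share in both resection libraries. It lay inside the exact 95% interval of the T cell-like share in sham 2 and 3. In sham 1 it was under the limit that the count of 0 allows. Ppara detection in the 2 classes was thus not told apart at this depth. T cell-like cells numbered 32 to 241 per library and also carried enterocyte markers, so this comparison cannot decide whether Ppara detection exceeded background.

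The members for mitochondrial entry and oxidation, Cpt1a and Acadm, also overlapped between the groups. Cpt1a was at 23.4, 17.5 and 23.1 CPM in sham 1, 2 and 3 and at 19.8 and 17.7 CPM in resection 1 and 2 (log2 fold change −0.18 ± 0.24, and −0.23 and −0.17 within the same sets of libraries). Acadm was at 76.6, 126 and 125 CPM in the sham libraries and at 97.2 and 114 CPM in the resection libraries (log2 fold change −0.05 ± 0.31, and 0.34 and −0.14 within the sets). The lowest Acadm level was that of sham 1, and both resection libraries lay inside the sham range.

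The peroxisomal enzyme gene Ehhadh spread more after resection than after sham surgery, with its highest and its lowest library both in the resection group. It was at 27.6, 24.8 and 16.6 CPM in sham 1, 2 and 3 and at 37.2 and 9.13 CPM in resection 1 and 2 (log2 fold change 0.01 ± 0.55). Within sham 1 and resection 1 the log2 difference was 0.42, and within the other 3 libraries it was −1.07.

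Angptl4 and Pdk4 stood out in 1 library, resection 1. Angptl4 was at 25.9, 25.5 and 4.79 CPM in sham 1, 2 and 3 and at 86.7 and 21.6 CPM in resection 1 and 2. Its log2 fold change was 1.55 ± 0.77 (unadjusted p = 0.0807, adjusted p = 0.998 in edgeR) and 0.24 without resection 1. Within sham 1 and resection 1 the log2 difference was 1.71, and within the other 3 libraries it was 0.87. Pdk4 was at 7.80, 1.91 and 2.44 CPM in the sham libraries and at 17.5 and 3.09 CPM in the resection libraries. Its log2 fold change was 1.5 ± 0.81 (unadjusted p = 0.107, adjusted p = 0.998 in edgeR) and −0.23 without resection 1. The differences within the same sets of libraries were 1.07 and 0.37. The summed level of 10 genes induced by tissue dissociation was 2644, 1920 and 2366 CPM in sham 1, 2 and 3 and 3646 and 1991 CPM in resection 1 and 2, with none of the 10 at 0. The median mitochondrial share of UMIs per enterocyte-like cell was 14.6%, 9.0% and 7.78% in the sham libraries and 12.3% and 9.57% in the resection libraries. The part of either in these results was not tested.

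In all, 0 of the 7 members passed an adjusted p of 0.05 in enterocyte-like cells by edgeR, against 0% of all genes tested, and 0 of 7 did so by DESeq2, against 0.54%. Creb3l3 was the single member under an unadjusted p of 0.05, against 5.01% of all genes. No member had both resection values below every sham value, against 7.92% of all genes.

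Goblet-like and Paneth-like cells gave the same arrangement of Creb3l3 levels. In goblet-like cells it was at 148, 141 and 75.8 CPM in sham 1, 2 and 3 and at 284 and 206 CPM in resection 1 and 2 (log2 fold change 1.02 ± 0.37, unadjusted p = 0.0167, edgeR adjusted p = 0.781). In Paneth-like cells it was at 21.9, 18.6 and 13.3 CPM in the sham libraries and at 32.9 and 33.4 CPM in the resection libraries (log2 fold change 0.84 ± 0.35). Both resection libraries were above every sham library for 11.4% of genes tested in goblet-like and 7.15% in Paneth-like cells. Goblet-like cells also held enterocyte markers, with sums of 25744, 40939 and 36416 CPM after sham surgery and 38667 and 70426 CPM after resection, none of the 8 at 0. In Paneth-like cells the sums were 4254, 9927 and 7153 CPM and 3606 and 19059 CPM. Their part in the Creb3l3 values was not tested.

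Younger cells gave overlapping Creb3l3 levels. Immature enterocyte-like cells had 43.3, 29.5 and 42.8 CPM in sham 1, 2 and 3 and 69.6 and 38.5 CPM in resection 1 and 2 (log2 fold change 0.49 ± 0.33). Cycling-like cells had 32.4, 9.49 and 12.7 CPM in the sham libraries and 30.3 and 30.2 CPM in the resection libraries (log2 fold change 0.97 ± 0.42). Over all epithelial cells together, Creb3l3 was at 96.5, 119 and 82.1 CPM after sham surgery and at 225 and 180 CPM after resection. That log2 fold change was 1.03 ± 0.28, with an unadjusted p of 0.00825 and an adjusted p of 0.999 in edgeR. The mix of cells in this pool differed between libraries. Summed Paneth markers were at 174257, 67111 and 23329 CPM in the sham libraries and 70919 and 22115 CPM in the resection libraries, and summed enterocyte markers at 24579, 45367 and 47315 CPM and then 36959 and 72598 CPM, with none of the 8 in either list at 0. Their part in the pooled value was not tested.

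The Angptl4 and Pdk4 levels of resection 1 did not stand out in the immature class. Immature enterocyte-like Angptl4 was at 27.8, 4.03 and 26.3 CPM in sham 1, 2 and 3 and at 16.7 and 5.53 CPM in resection 1 and 2 (log2 fold change −0.78 ± 0.76). Pdk4 there was at 6.57, 1.88 and 11.4 CPM in the sham libraries and at 9.0 and 2.85 CPM in the resection libraries (log2 fold change −0.15 ± 0.71). In goblet-like cells Angptl4 was at 24.7, 17.3 and 11.7 CPM after sham surgery and at 51.6 and 17.4 CPM after resection, with resection 1 again the highest.

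Ehhadh had the same order of libraries in both enterocyte classes. In immature enterocyte-like cells it was at 24.4, 16.1 and 10.8 CPM in sham 1, 2 and 3 and at 27.5 and 7.71 CPM in resection 1 and 2, so that resection 1 was the highest library and resection 2 the lowest, as in enterocyte-like cells. Cpt1a and Acadm overlapped between groups in each of the 5 classes tested, with log2 fold changes of −0.44 to 0.03 for Cpt1a and −0.05 to 0.20 for Acadm.

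The test was made for all 7 members in enterocyte-like, immature enterocyte-like and cycling-like cells and in all epithelial cells. In goblet-like and Paneth-like cells, 5 were tested and Ppara and Pdk4 were under the count filter. By edgeR, 0 members passed in the immature (0% of all genes), cycling-like (0%), goblet-like (0.142%), Paneth-like (0.0314%) and all epithelial cells (0%), and DESeq2 called none either (0%, 0.0212%, 0.142%, 0.0942% and 0.324% of all genes in that order). Under an unadjusted p of 0.05 there were 0 members in the immature cells and 1, Creb3l3, in each of the others, against 1.1%, 1.46%, 4.9%, 2.03% and 2.76% of all genes in that order. No member apart from Creb3l3 had separate groups in these classes. All genes had resection values above every sham value in 5.91% of cases in immature, 6.1% in cycling-like and 7.99% in all epithelial cells. They lay below in 4.58%, 4.94%, 8.74%, 6.3% and 6.26% of cases in the immature, cycling-like, goblet-like, Paneth-like and all epithelial cells. Stem-like cells were too few in 1 library for a test. Their Creb3l3 level, unscaled, was 42.5, 23.1 and 16.9 CPM after sham surgery and 36.6 and 29.3 CPM after resection.

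The wider pathway was followed in 69 further genes, grouped by role. In enterocyte-like cells 60 were tested, 0 passed by edgeR (0% of all genes) and 1, Oxct1, by DESeq2 (0.54% of all genes), and 10 had an unadjusted p under 0.05, against 5.01% of all genes. Both resection libraries were above every sham library for 15 and below for 8, against 10.5% and 7.92% of all genes. The median log2 fold change was 0.01, against −0.02 over all genes tested.

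Peroxisomal genes were mostly higher in value after resection. Of the 10, 9 had a fold change above 0, beside 4976 of all 10371 genes, and the median log2 fold change was 0.44. The resection values exceeded every sham value for 7 of the 10, against 10.5% of all genes. Crot, which prepares shortened fatty acids for export from peroxisomes, was at 71.9, 77.1 and 87.9 CPM in sham 1, 2 and 3 and at 127 and 108 CPM in resection 1 and 2 (log2 fold change 0.57 ± 0.25, edgeR adjusted p = 0.997). In goblet-like cells 9 of the 9 tested peroxisomal genes were above 0 with a median of 0.66, and in immature enterocyte-like cells 6 of 10 with a median of 0.07. The summed enterocyte markers given above for goblet-like cells were 25744 to 40939 CPM after sham surgery and 38667 and 70426 CPM after resection. Resection 2 lay above every sham value and resection 1 did not, and the part of these markers was not tested. None of the peroxisomal genes passed the adjusted test, and the member Ehhadh did not share their arrangement.

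In enterocyte-like cells, ketone body genes leaned the other way in value, and mitochondrial genes did so by little beyond all genes. Of 15 mitochondrial β-oxidation genes, 5 had a fold change above 0 and 10 below, beside 4976 above and 5395 below of all 10371 genes, with a median log2 of −0.14 and both resection libraries below every sham library for 2 (7.92% of all genes). Acads, the short-chain counterpart of Acadm, was at 168, 109 and 122 CPM in sham 1, 2 and 3 and at 84.6 and 95.2 CPM in resection 1 and 2 (log2 fold change −0.57 ± 0.29). For the ketone body genes the split was 1 above 0 and 5 below, with a median of −0.22. In value this lean was not found in every class, since 3 of 5 ketone body genes were above 0 in goblet-like cells (median 0.04) and 4 of 5 in Paneth-like cells (median 0.11). Oxct1, which activates ketone bodies for use as fuel, was at 84.4, 59.3 and 87.1 CPM after sham surgery and at 34.3 and 32.7 CPM after resection. Its log2 fold change was −1.20 ± 0.28, with an adjusted p of 0.538 by edgeR and 0.0352 by DESeq2, within a range of 0.0352 to 1.0 over the alternatives. Bdh1, which interconverts the ketone bodies, was at 48.5, 37.6 and 42.5 CPM in the sham libraries and at 34.2 and 33.2 CPM in the resection libraries (log2 fold change −0.34 ± 0.23).

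Among the regulators, 7 had a fold change above 0 and 3 below, with a median log2 of 0.26. Ppargc1a, a coactivator of PPARα, was at 34.3, 41.0 and 24.0 CPM in sham 1, 2 and 3 and at 83.6 and 49.3 CPM in resection 1 and 2 (log2 fold change 1.0 ± 0.34, edgeR adjusted p = 0.874). Ncor1, a corepressor of nuclear receptors, was at 151, 132 and 103 CPM after sham surgery and at 210 and 196 CPM after resection (log2 fold change 0.66 ± 0.28). Nr1h4, the bile acid receptor FXR, was at 58.5, 80.8 and 125 CPM in the sham libraries and at 49.6 and 62.6 CPM in the resection libraries (log2 fold change −0.66 ± 0.36), with overlap. A further 3 genes with low levels were picked after their values were seen. Cd36, a fatty acid transporter, was at 5.85, 5.92 and 2.17 CPM after sham surgery and at 30.1 and 8.89 CPM after resection. Slc27a2, which takes up and activates fatty acids, was at 7.52, 9.03 and 4.34 CPM and then 46.0 and 12.0 CPM. Acaa1b, a peroxisomal thiolase, was at 11.1, 5.62 and 1.90 CPM and then 32.9 and 17.1 CPM. Resection 1 was the highest library for all 3 of these genes, with resection 2 next.

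**Figure D2:**
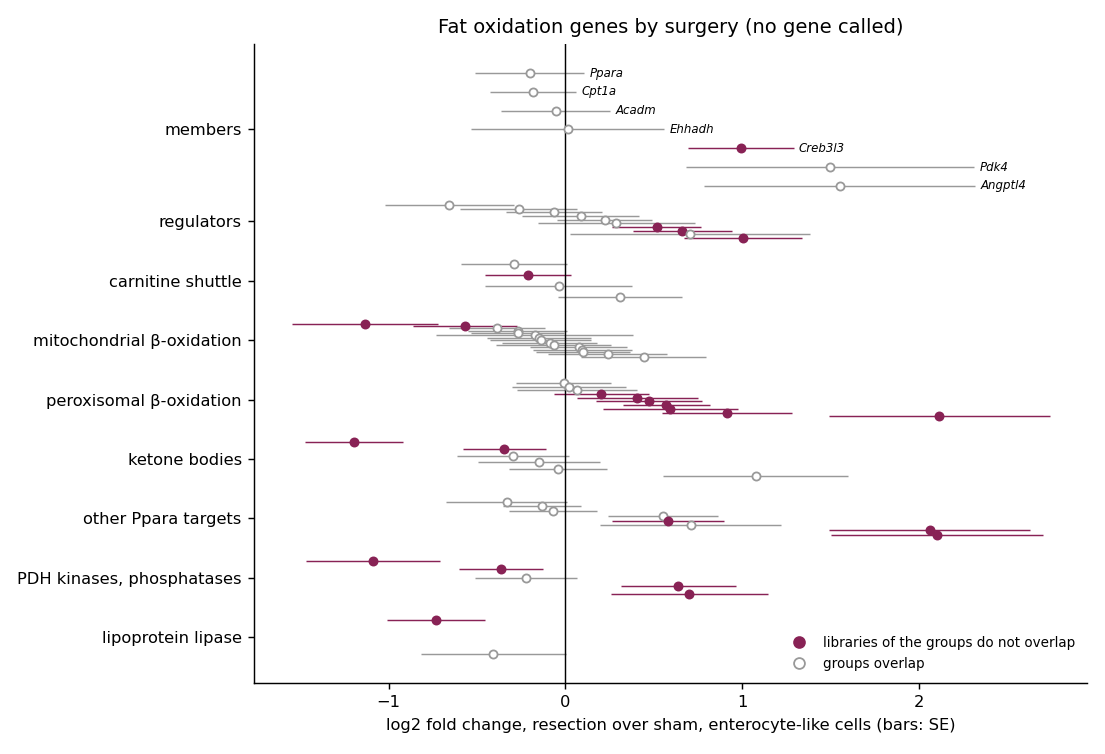
Log2 fold change of resection over sham in enterocyte-like cells for the members and for the wider list by role, 1 point per gene tested. Creb3l3 (0.99), Angptl4 (1.55) and Pdk4 (1.5) lie above 0 among the members, and the peroxisomal genes lie mostly above 0 with a median of 0.44.

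On a common TMM scale over all 7 classes, Creb3l3 was highest and Cpt1a lowest in enterocyte-like cells, while without scaling Cpt1a was lowest in Paneth-like cells. Creb3l3 in enterocyte-like cells was at 246 ± 114 CPM (SD, n = 5 libraries of both surgery groups). It followed with 134 ± 59.8 CPM in goblet-like, 125 ± 46.2 CPM in T cell-like, 93.1 ± 33.3 CPM in Paneth-like and 35.4 ± 12.0 CPM in immature enterocyte-like cells. Stem-like cells had 21 ± 5.15 CPM and cycling-like cells 16.4 ± 7.73 CPM. The SD ranges of neighbours in this order overlapped at each step except that from Paneth-like to immature cells. Scaling sets the Paneth-like place, since the unscaled mean there was 24.6 CPM, under the immature value.

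Cpt1a was highest in the younger classes. It was at 54.2 ± 10.1 CPM in immature enterocyte-like, 50.7 ± 13.7 CPM in stem-like and 48.2 ± 11.1 CPM in cycling-like cells, which lay within each other's spread. Goblet-like cells had 28.7 ± 12.9 CPM, Paneth-like cells 24.2 ± 12.5 CPM (6.30 unscaled), and enterocyte-like cells were lowest at 20.4 ± 2.76 CPM. Neighbours overlapped at each step of the order, while the ranges of immature and enterocyte-like cells did not. T cell-like cells had 23.1 CPM. Ppara was also highest in immature enterocyte-like cells, at 7.85 ± 1.45 CPM. It was at 4.83 ± 2.81 CPM in goblet-like, 4.43 ± 2.13 CPM in cycling-like, 4.24 ± 0.71 CPM in enterocyte-like, 3.11 CPM in stem-like and 3.02 CPM in Paneth-like cells, and the spread of goblet-like cells reached that of the immature cells.

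Acadm was highest in the enterocyte lineage, at 109 ± 20.9 CPM in enterocyte-like and 96.7 ± 14.9 CPM in immature cells, within each other's spread, and in the reverse order without scaling (106 and 121 CPM). T cell-like cells had 77.0 CPM, goblet-like cells 69.1 ± 11.2 CPM, cycling-like 55 ± 18.7 CPM, stem-like 50.4 ± 7.34 CPM and Paneth-like 45.1 ± 12.3 CPM (12.1 unscaled). Ehhadh was at 23.3 ± 11.3 CPM in enterocyte-like, 15.3 ± 8.45 CPM in goblet-like and 13.7 ± 6.77 CPM in immature cells, at 12.2 CPM in T cell-like and 11.5 CPM in Paneth-like cells (2.78 unscaled), and at 7.02 and 5.92 CPM in cycling-like and stem-like cells. Angptl4 had its highest mean in enterocyte-like cells with a spread as large as the mean, 33.7 ± 33.3 CPM, followed by 19.1 ± 11.8 CPM in goblet-like, 17.4 CPM in T cell-like, 13.3 CPM in Paneth-like (3.34 unscaled) and 12.7 ± 8.81 CPM in immature cells. Pdk4 had a mean of 6.72 ± 6.95 CPM in enterocyte-like and 5.01 ± 3.18 CPM in immature cells, which overlapped.

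**Figure D3:**
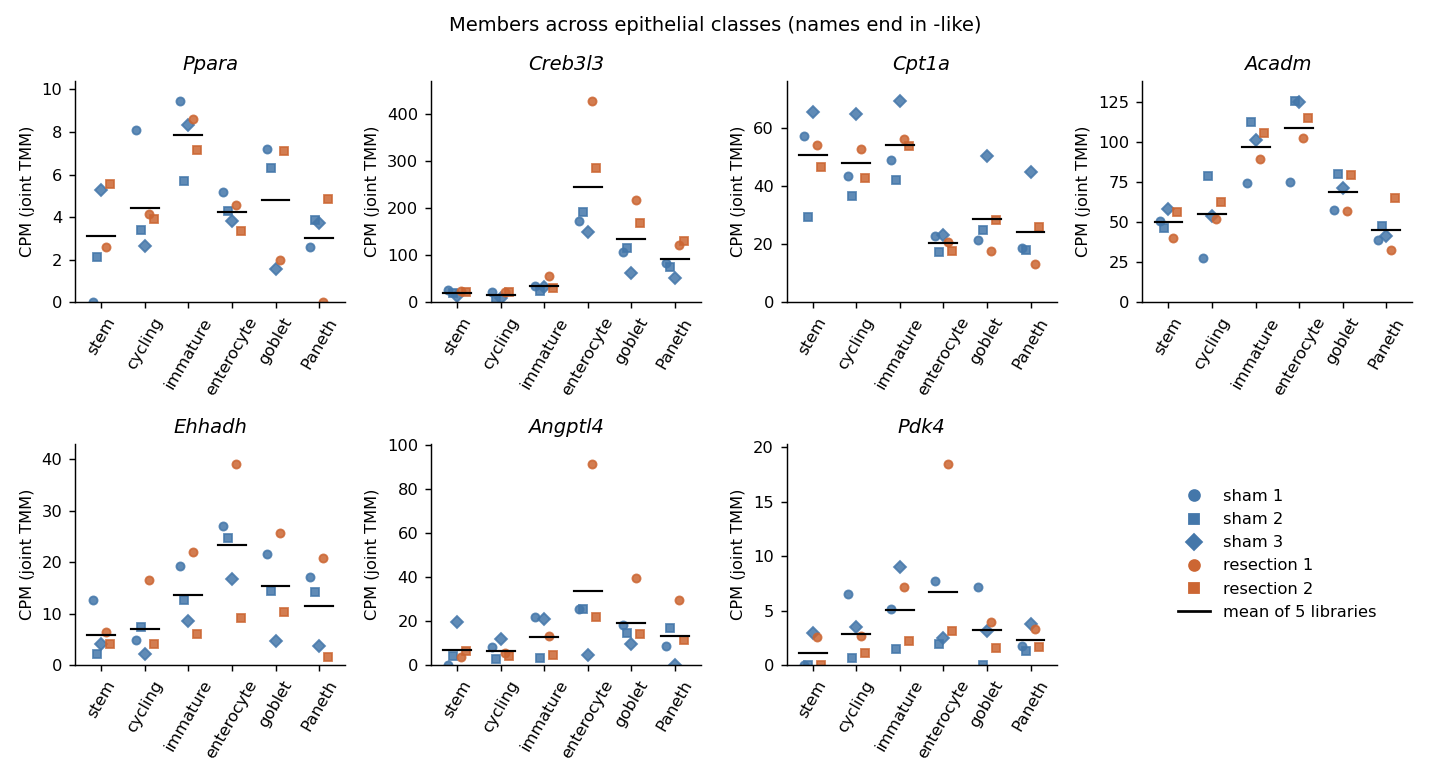
Level of each of the 7 genes by cell class, 1 point per library, in CPM on a common TMM scale. Creb3l3 is highest in enterocyte-like cells (mean 246 CPM) and lowest in cycling-like cells (16.4 CPM), and Cpt1a is highest in immature cells (54.2 CPM) and lowest in enterocyte-like cells (20.4 CPM).

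Enterocyte-like cells were then tested against immature enterocyte-like cells with the library as a block. The members were left out of the genes that formed the clusters, but many genes that move with maturation were not, so the test shows how well a difference repeats over libraries. Of the 7 members 4 passed by edgeR, 2 higher and 2 lower in enterocyte-like cells, against 68.8% of all 9688 genes (35.1% higher and 33.7% lower). Creb3l3 was higher by a log2 of 2.73 ± 0.16 (adjusted p = 2.73e-07), and Ehhadh by 0.75 ± 0.10 (adjusted p = 7.41e-05), each in 5 of 5 libraries. Cpt1a fell by 1.46 ± 0.09 on the log2 scale (adjusted p = 4.59e-07) and Ppara fell by 0.94 ± 0.15 (adjusted p = 0.00025), each in 5 of 5 libraries. Among the members, Cpt1a and the receptor gene Ppara were thus lower in the mature class, in which Creb3l3 and the peroxisomal member were higher.

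The other members did not pass. Acadm differed by a log2 of 0.13 ± 0.08 (edgeR adjusted p = 0.158, 4 of 5 libraries higher), and by −0.19 with library totals alone as the scale (adjusted p = 0.0432). Angptl4 differed by 1.28 ± 0.58 (edgeR adjusted p = 0.0691, 4 of 5 libraries higher), and by 2.05 without sham 3 (adjusted p = 0.000425). Pdk4 differed by 0.28 ± 0.39 (edgeR adjusted p = 0.547, 4 of 5 libraries higher), by 0.86 without sham 3 (adjusted p = 0.00479), and by −0.07 with library totals alone. Sham 3 was the library in which Angptl4 was higher in immature cells (26.3 CPM) than in enterocyte-like cells (4.79 CPM).

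**Figure D4:**
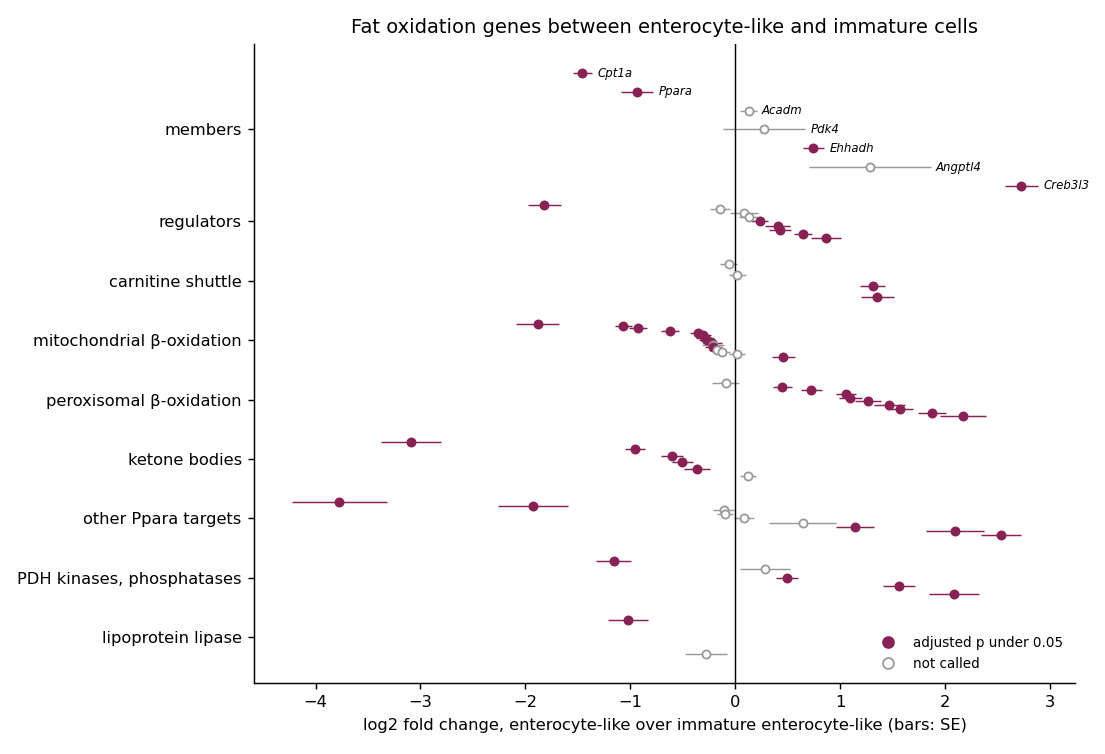
Log2 fold change of enterocyte-like over immature enterocyte-like cells for the members and the wider list by role, 1 point per gene tested. Creb3l3 (2.73) and Cpt1a (−1.46) lie at opposite ends of the members, the peroxisomal genes lie above 0 (median 1.18) and the ketone body genes below it (median −0.55).

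In the same contrast the wider list as a whole lay near the background, with 23 higher and 20 lower of 60 tested, against 35.1% higher and 33.7% lower of all genes. Its roles differed in direction. Of 10 peroxisomal genes 9 passed as higher and 0 as lower in the mature class, and the median log2 was 1.18 against 0.01 over all genes tested. Pex11a, which helps peroxisomes divide, was the exception at −0.09. Of 15 mitochondrial β-oxidation genes 1 passed as higher and 10 as lower, with a median of −0.26. Hadh, the short-chain dehydrogenase, was the higher one at 0.46 ± 0.11. The thiolase Acaa2 (−1.07 ± 0.08) and the isomerase Eci2 (−0.93 ± 0.09) were among the lower ones.

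Ketone body genes were lower in the mature class. Of 6, 5 passed as lower and 0 as higher, with a median log2 of −0.55. Acat1, which joins acetyl groups at the start of ketone body formation, fell by 0.95 ± 0.09 on the log2 scale.

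The remaining roles were mixed. Of 4 carnitine shuttle genes 2 passed as higher, Crat (1.36) and the carnitine transporter gene Slc22a5 (1.31). Of 9 regulators 5 passed as higher and 1 as lower, with the coactivator genes Ppargc1a at 0.86 and Ppargc1b at −1.82. Of 9 other PPARα targets 3 passed as higher, Vnn1 (2.53 ± 0.19), Cd36 (2.10) and the acyl-CoA synthetase gene Acsl1, and 2 as lower, Acot1 and Acot2. Among 5 kinases and phosphatases of pyruvate dehydrogenase, Pdk2 (1.56 ± 0.15), Pdk3 and Pdp1 were higher and Pdk1 (−1.16) was lower. With library totals alone as the scale, the median of all genes moved to −0.31, and 2112 of the 9688 genes were called higher and 4859 lower. On that scale the counts became 8 higher and 1 lower of the peroxisomal, 0 and 14 of the mitochondrial and 0 and 6 of the ketone body genes. For the carnitine shuttle they became 2 and 2, for the regulators 2 and 2, and for the members 2 and 3.

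Whether surgery acted differently in the 2 enterocyte classes was tested by their interaction. By edgeR 0 of the 7 members and 0% of all genes passed, and 3 members had an unadjusted p under 0.05, against 10.5% of all genes. The interaction was 2.43 ± 0.84 on the log2 scale for Angptl4 (unadjusted p = 0.0135, adjusted p = 0.321) and 1.70 ± 0.59 for Pdk4 (adjusted p = 0.321). For Creb3l3 it was 0.57 ± 0.24 (unadjusted p = 0.0384, adjusted p = 0.440). Without sham 2 the Angptl4 value was 3.52 with an adjusted p of 0.0353. The interactions of Ppara, Cpt1a, Acadm and Ehhadh were between −0.20 and −0.02.

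Within the enterocyte-like class, each library's cells were ordered by a score of villus tip genes minus villus bottom genes and split into tertiles, and levels were taken as unscaled CPM without a test. Creb3l3 was higher in each successive tertile in 5 of 5 libraries, with means of 134, 230 and 412 CPM from lower to middle to upper. In sham 1 it was at 149, 179 and 296 CPM, in sham 2 at 76.2, 146 and 356 CPM and in sham 3 at 61.3, 109 and 276 CPM. In resection 1 it was at 282, 459 and 623 CPM, and in resection 2 at 102, 258 and 509 CPM. The resection libraries lay above every sham library in the middle and upper tertiles, and in the lower tertile resection 2 lay below sham 1. The share of all genes with separate groups was not computed for tertiles. In the whole class, both resection libraries were above every sham library for 10.5% of genes tested.

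Cpt1a and Acadm ran the other way along the same axis. Cpt1a had means of 25, 18.5 and 17.2 CPM from lower to upper, and the upper tertile was below the lower in 5 of 5 libraries, from 35.9 to 24.6 CPM in sham 1, 19.3 to 12.0 CPM in sham 2 and 24.5 to 13.8 CPM in sham 3. In resection 1 it went from 25.5 to 20.04 CPM and in resection 2 from 19.8 to 15.5 CPM. Acadm had means of 118, 107 and 89.6 CPM and was lower at each step in 5 of 5 libraries. With the score taken from tip genes alone it was lower at each step in 3 of 5, and in sham 3 the upper tertile (113 CPM) was above the lower (110 CPM). By the first score it went from 97.8 to 80.8 CPM in sham 1, 128 to 86.4 CPM in sham 2, 122 to 107 CPM in sham 3, 126 to 89.3 CPM in resection 1 and 118 to 84.6 CPM in resection 2.

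The remaining members differed between libraries in their course along the axis. Angptl4 had means of 26.2, 33.2 and 46.1 CPM, and the upper tertile was above the lower in 4 of 5 libraries. It was at 59.5, 94.4 and 138 CPM in resection 1, at 2.15, 5.58 and 5.83 CPM in sham 3 and at 25.4, 20.9 and 22.6 CPM in sham 2, the exception. Ehhadh had means of 24.0, 22.8 and 24.9 CPM. The Pdk4 means of 8.38, 6.24 and 6.39 CPM covered unlike courses, with log2 differences of upper over lower of −1.38 in sham 1, −1.26 in sham 3 and 1.02 in resection 2. Ppara had means of 4.72, 4.12 and 3.87 CPM, and its upper tertile was above its lower in sham 1 alone.

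**Figure D5:**
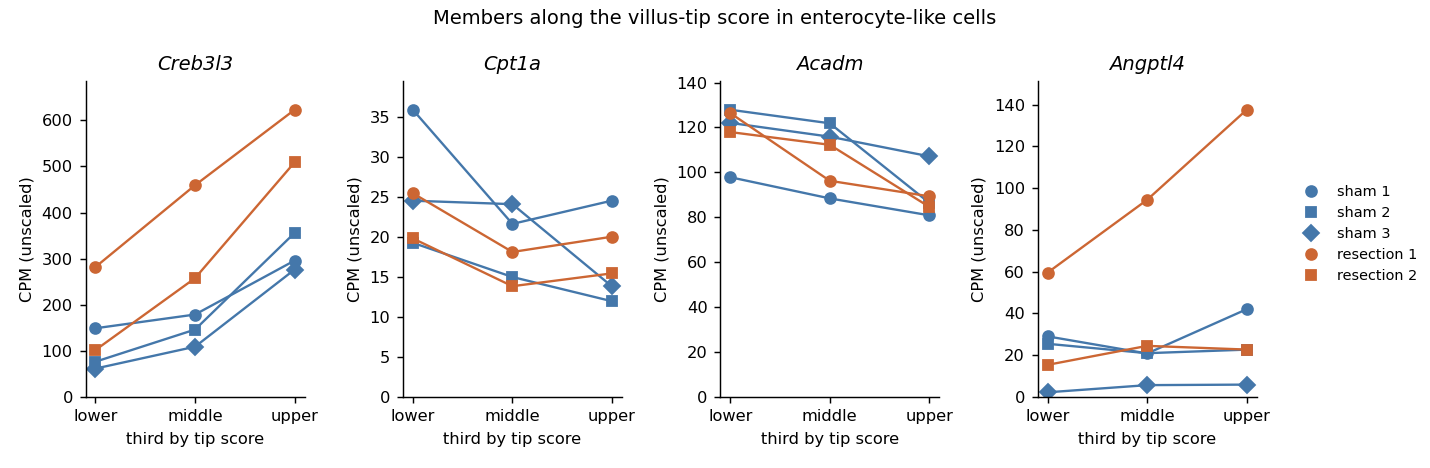
Level of Creb3l3, Cpt1a, Acadm and Angptl4 in enterocyte-like cells split into lower, middle and upper tertiles of the villus tip score, 1 line per library, in unscaled CPM. Each of the 5 Creb3l3 lines is higher in the upper than in the lower tertile (means 134 and 412 CPM), and each of the 5 Acadm lines is lower (118 and 89.6 CPM).

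The high Angptl4 level of resection 1 was most marked in part of its enterocyte-like cells but was not confined to that part. Even its lower tertile of the villus tip score, at 59.5 CPM, lay above every tertile of the other libraries. Cluster 9, with 903 of its 907 cells from resection 1, had 175 CPM of Angptl4 in that library, and cluster 4, with 1285 of the library's cells, had 45.2 CPM. The resection 1 cells of cluster 15 had 123 CPM, against 25.8 CPM in the sham 1 cells of that cluster. Angptl4 was among the leading genes of cluster 9, beside Abcb1a, Sgk1 and Pck1, but had been left out of the genes used to cluster. Pdk4 had another distribution, with 22.4 CPM in cluster 4 and 15.2 CPM in cluster 9 of resection 1. A cluster that is almost wholly 1 library may be that library and not a cell type.

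The genes whose levels most resembled a member's over 25 points (5 classes in 5 libraries that share depth and composition within a library) were found among 4496 genes. For Creb3l3 they were Gda (Pearson r = 0.98), Clca4b (0.97) and Apob (0.97), for Cpt1a Eef1a1 (0.91), Oxa1l (0.87) and Gm6133 (0.86), and for Acadm Serpinb1a, Ccl25 and Akr7a5 (each 0.92). Over the same points Creb3l3 correlated with Cpt1a at −0.78 and with Angptl4 at 0.68, Ehhadh with Angptl4 at 0.67, and Angptl4 with Pdk4 at 0.62.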

How the data were processed

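Epithelial cells of 3 sham and 2 resection libraries were profiled with 10x Chromium 3′ v2 chemistry. The deposited values are unnormalized UMI counts, 1 matrix of genes by cells per library, made by the authors with Cell Ranger per the labels, whose version carries a question mark there. Builds mm10 and GRCm38 are named in the submitters' processing notes. Cells with at least 500 genes and at most 20% mitochondrial UMIs were kept, and 720 doublets were removed by simulation (0.8% per 1000 cells). Leiden clustering (scanpy 1.11.5, leidenalg 0.10.2, resolution 1.0, 2000 variable genes without the members, 30 components, 20 neighbours) gave 19 clusters, named from markers. Markers were scored by their position between clusters within each library, and a cluster whose immature score led its enterocyte score by under 0.1 was named enterocyte-like, a rule chosen after the data were seen. The names of clusters 2 and 6 rest on that tie rule.

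Counts were summed per library and class (none of its libraries under 20 cells) and tested two-sided with edgeR 4.0.16 in R 4.3.3 (quasi-likelihood, TMM, filterByExpr, Benjamini-Hochberg over all genes, threshold 0.05). DESeq2 1.42.0, other scaling, other filters and left-out libraries were alternatives. The test was tried on simulated counts first. Intervals cover counting error only. Members, the 69 further genes and the tests were chosen with earlier results of these data known. All members are named. Of the wider list, the 4 higher and 4 lower genes with the lowest unadjusted p and at least 20 CPM on average are named in enterocyte-like cells, except that 1 of them is not reported here, and examples in other contrasts were chosen after their values were seen. For each member above 20 CPM, the 3 genes of highest correlation of log2(CPM + 10) are named.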

Additional observations from a re-analysis of the deposited data

How the results depend on the processing

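Library number limits these results: 2 resection libraries against 3 sham ones, with classes that lie in different clusters per library. The cause of the changes below was not tested. Member surgery calls in enterocyte-like cells stayed at 0 except with no filter on low counts (2, Angptl4 with an adjusted p of 0.00357 and Pdk4 with 0.0229, by edgeR). Creb3l3 there kept its direction over the 13 alternatives, with log2 values of 0.72 to 1.22 and adjusted p from 0.177. Calls of the wider list were 1 with DESeq2, 3 with no filter (Acaa1b, Cd36, Slc27a2) and 1 with the replicate block (Acaa1b).

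The labels do not say that replicate numbers pair the samples. Deviations from the group means in enterocyte-like cells correlated at 0.75 for sham 1 with resection 1, 0.32 for sham 2 with resection 2, and 0.70 for sham 3 with resection 2. With 2 resection libraries, the deviations of these libraries mirror each other. Each correlation therefore has the opposite sign with the other resection library (−0.75, −0.32 and −0.70), and these values cannot decide the pairing. With the replicate block, calls of the wider list were 1 in immature, 1 in goblet-like and 1 in Paneth-like cells, and 2 in all epithelial cells (Acaa1b, Oxct1), where 1 member, Creb3l3, was called (edgeR adjusted p = 0.0471). In goblet-like cells 2 of the wider list were called with no filter. All genes called in enterocyte-like cells were 0 by edgeR, 56 by DESeq2, 198 with no filter, 45 with the replicate block, 24 with sham 1 and resection 1 against the rest as a term, and 0 to 3 when a library was left out. The same counts were 148 with the block in immature cells. In cycling-like cells they were 2 by DESeq2, 3 with no filter, 25 with the block, 2 with the set term and 0 to 4 when a library was left out. In goblet-like cells 8 became 48 with no filter, 49 with the block, 5 without doublet removal, 1 scaled within library and 0 to 18 when a library was left out. In Paneth-like cells 2 became 6 by DESeq2, 13 with no filter, 70 with the block, 10 with the set term and 0 to 7 when a library was left out. In all epithelial cells 0 became 38 by DESeq2, 18 with no filter, 224 with the block and 3 with the set term.

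Some log2 values changed sign. In enterocyte-like cells Acadm was at 0.0882 with the replicate block, 0.062 with the set term and −0.25 to 0.0591 when a library was left out (above 0 without sham 2, sham 3 or resection 1). Ehhadh was at −0.52 with the replicate block, −0.48 with the set term and −1.32 to 0.70 when a library was left out (−0.18 without sham 3, −1.32 without resection 1). Pdk4 was at −0.23 without resection 1 and 2.26 without resection 2. In all epithelial cells Angptl4 was at −0.0553 and Pdk4 at −0.57 without resection 1, and at 1.68 and 1.62 without resection 2. In the class contrast Pdk4 was at −0.32 without resection 1 and 0.86 without sham 3. With library totals alone, chosen after seeing the data, Acadm was at −0.19 and Pdk4 at −0.0669. For the interaction, 0 to 1 members and 0 to 1 genes of the wider list were called when a library was left out, and all genes called were 0 to 12. The interaction ran from −0.47 without sham 3 to 0.0211 without sham 2 for Ppara, from −0.11 without sham 1 to 0.017 without resection 2 for Acadm, and from −0.24 without sham 1 to 0.0265 without sham 2 for Ehhadh. The upper-over-lower tertile log2 of Acadm was −0.40 and −0.23 with tip genes alone. RLE scaling of the class contrast, TMM over tertiles and leaving out libraries for the tertiles were also chosen after seeing the data. A mitochondrial limit of 10% was not run for enterocyte-like, cycling-like and goblet-like cells, which had under 20 cells in a library.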
